A study of Mus musculus with 6 samples.

Results

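The proteasome genes described here are the constitutive subunits, activators and assembly factors, taken as every gene whose symbol starts with Psma, Psmb, Psmc, Psmd, Psme, Psmf or Psmg followed by a digit. The inducible subunits Psmb8, Psmb9 and Psmb10 and names containing -ps were left out. This gave 48 of the 56691 genes in the table. They comprised 16 core genes (8 of the alpha ring and 8 of the beta ring), 17 cap genes (6 ATPases and 11 other subunits), 5 activator genes, the regulator gene Psmf1 and 7 assembly genes. The remaining 2, Psmc3ip and Psme3ip1, carry such a name because their products bind a subunit, and were counted in no role. All RNA came from 4T1, a line grown from a mouse mammary tumour. KIRA6 cells had 1 µmol/L of the compound for 4 h, and Vehicle cells had vehicle for 4 h, with 3 libraries in each group. Both were kept in full medium from the night before, and the labels name no genetic change in either. The compound targets the kinase part of IRE1α, an endoplasmic reticulum protein that responds to misfolded proteins, and dampens its RNase. The comparison asks which of these transcripts differed after this short exposure.

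The proteasome degrades proteins that carry ubiquitin chains. Its core particle is a barrel of stacked alpha and beta rings in which Psmb5, Psmb6 and Psmb7 carry the catalytic sites. The cap, or regulatory particle, binds ubiquitin, removes it, and unfolds the substrate with a ring of ATPases. Activators such as PA28 and PA200 can bind the ends of the barrel in place of a cap, and dedicated chaperones build the rings. Cells whose proteasomes are inhibited raise subunit transcripts together through the transcription factor NRF1, encoded by Nfe2l1, and interferons induce the immunoproteasome subunits and PA28α and PA28β.

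Libraries held 18216538 to 21347756 fragments assigned to genes in KIRA6 cells and 16497687 to 18585656 in Vehicle cells. Fragments assigned to mitochondrially encoded genes were 2.66% to 3.25% in KIRA6 libraries and 1.75% to 2.03% in Vehicle libraries. Values are FPKM, fragments scaled to exonic length and to the library total, as the authors deposited them. The 5 epithelial markers summed to 1449 to 1547 FPKM in KIRA6 libraries and 1334 to 1471 FPKM in Vehicle libraries. Leukocyte markers summed to 0.46 to 0.76 FPKM with KIRA6 and 0.08 to 0.39 FPKM with Vehicle, nearly all of it Lyz2, and Cd3e and Adgre1 were at 0 in all 6 libraries. The 3 endothelial markers summed to at most 0.06 FPKM in any library. The 3 fibroblast markers summed to 1.81 to 3.70 FPKM with KIRA6 and 0.39 to 0.71 FPKM with Vehicle, nearly all of it Pdgfra, while Lum was at 0 throughout.

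After KIRA6, 4 of the constitutive proteasome genes passed the test across all genes. Psme1, which encodes the PA28α activator subunit, rose. Psme3, which encodes the nuclear activator PA28γ, fell, as did Psmd3, a scaffold subunit of the cap, and Psmg3, a chaperone of core assembly. Of the 48 genes 46 had a mean of at least 0.5 FPKM and were tested among 11778 genes with limma on log2(FPKM + 0.5). A gene was called at a Benjamini-Hochberg adjusted p below 0.05, two-sided over all genes tested. The 1 gene called higher was 2.17% of the 46 tested genes, against 15.6% of all genes tested, and the 3 called lower were 6.52%, against 7.98%. FPKM ranges of the groups did not overlap for 3 genes higher with KIRA6 (6.52%, against 27.7% of all genes) and for 4 lower with KIRA6 (8.70%, against 14.1%). Since RNA came from whole cultures, lower levels in every cell and loss of the transcript from some cells cannot be told apart.

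Log2 fold changes were below 0 for 38 of the 46 genes and had a median of -0.21, while the median over all genes tested was 0.16. Medians by role were -0.15 for the 14 core genes tested, -0.26 for the 17 cap genes, 0.32 for the 5 activator genes and -0.26 for the 7 assembly genes. The activator median turned to -0.089 when Vehicle replicate 3 and KIRA6 replicate 1, described below, were left out together. The core, cap and assembly medians stayed below 0. In all 14 core genes, all 7 assembly genes and most cap genes, KIRA6 replicate 1 was the highest KIRA6 library. Vehicle replicate 3 was the lowest Vehicle library in all core and assembly genes and most cap genes. Leaving both out thus lowers the core, cap and assembly medians by itself, and their sign there is no separate result. Scaling the libraries by median ratios moved the median of all genes to -0.0084 and that of the 46 to -0.39. It called 0 genes higher and 6 lower, against 11.0% and 12.2% of all genes, the 6 being Psme3, Psmg3, Psmd7, Psmg1, Psmd3 and Psmc5. The forest plot of log2 fold changes shows that the intervals of all 14 core genes tested span 0 and the median of all genes.

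**Figure D1:**
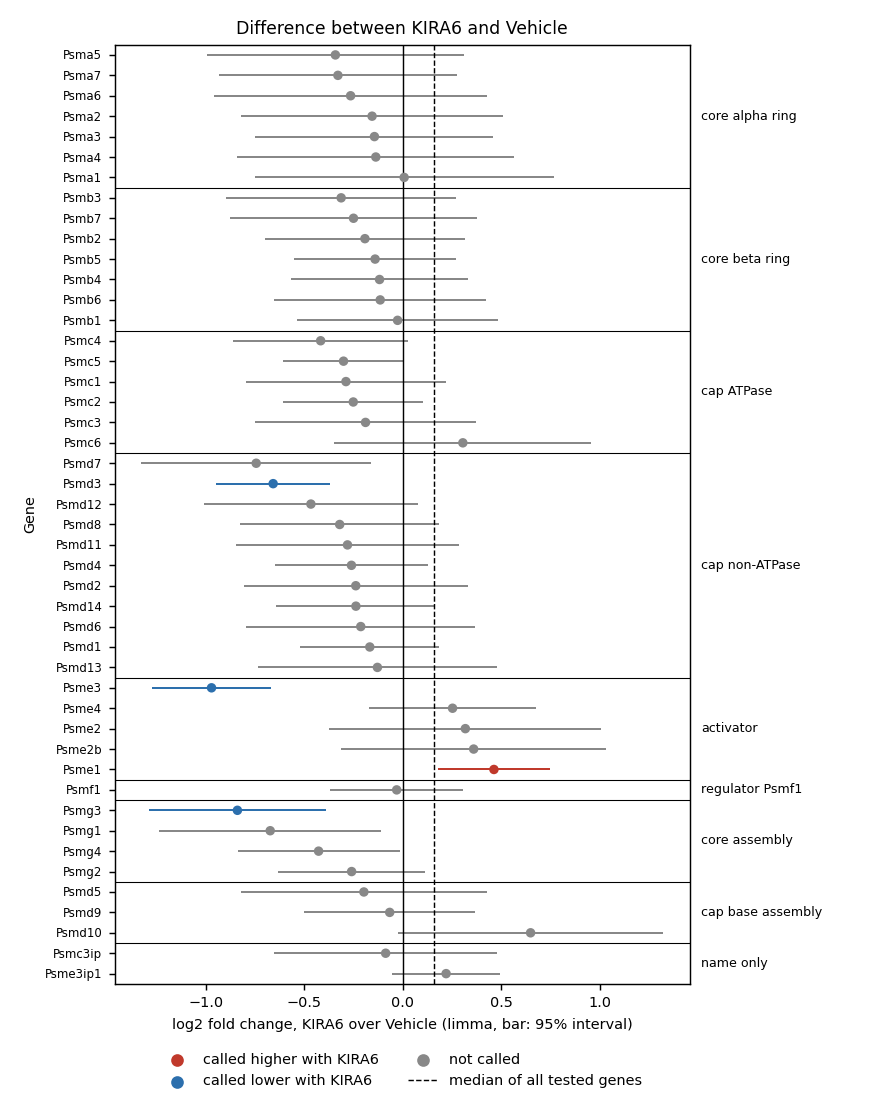
Log2 fold change of KIRA6 over Vehicle (x axis, limma on log2(FPKM + 0.5), bars are 95% intervals, 3 libraries per group) for each of the 46 tested genes (y axis), grouped by role, with called genes coloured. Psme3 at -0.97, Psmg3 at -0.84 and Psmd3 at -0.66 lie furthest from 0 among the called decreases, Psme1 at 0.46 is the called increase, and the dashed line is the median of all tested genes at 0.16.

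Libraries of 1 group differed from each other in these genes in a shared order. Vehicle replicate 3 was the lowest Vehicle library in 39 of the 46 genes, against 5835 of 11778 genes overall. KIRA6 replicate 1 was the highest KIRA6 library in 37 and KIRA6 replicate 3 the lowest in 36, against 4704 and 3733 of all genes. For the 14 core genes each of these statements held 14 of 14 times. The geometric mean of the core genes was 106, 85.3 and 68.0 FPKM in KIRA6 replicates 1, 2 and 3 and 114, 109 and 72.3 FPKM in Vehicle replicates 1, 2 and 3. Vehicle replicate 3 thus lay within the range of the KIRA6 libraries. Together the 48 genes took 0.881%, 0.721% and 0.647% of fragments in the KIRA6 libraries and 0.993%, 0.972% and 0.716% in the Vehicle libraries.

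The spread within groups was wide. The median SD of log2(FPKM + 0.5) for the 46 genes was 0.27 in KIRA6 and 0.31 in Vehicle libraries, against 0.22 and 0.25 over all genes. Vehicle replicate 3 and KIRA6 replicate 1 also stood apart over all genes, at -55.9 and 44.5 on the second principal component, which held 35.1% of the variance. On the first, which held 56.0%, these 2 libraries were at 10.2 and -11.0. They lay there between the other Vehicle libraries, at 47.7 and 43.8, and the other KIRA6 libraries, at -42.0 and -48.6. Without both libraries, 2 genes were called higher (Psme1 and Psme4) and 32 lower, against 35.7% and 20.1% of all genes. The 32 included 11 of the 14 core genes and 14 of the 17 cap genes, with medians of -0.56 and -0.55, while the median over all genes was 0.18. Those 2 libraries are set apart by values in these same data and leave 2 per group, so the smaller spread is part of what leaving them out does. KIRA6 replicate 1 was the highest KIRA6 library in all 14 core genes and 13 of the 17 cap genes. Vehicle replicate 3 was the lowest Vehicle library in all 14 core genes and 14 of the 17 cap genes. Leaving both out therefore lowers most of these fold changes by itself, and the calls lower are no separate result. Without Vehicle replicate 3 alone, 1 gene was called higher and 8 lower, against 17.7% and 11.2% of all genes. The 8 held 5 cap genes and 0 core genes. Vehicle replicate 3 was the lowest Vehicle library in 39 of the 46 genes, so leaving it out alone also lowers most fold changes by itself.

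**Figure D2:**
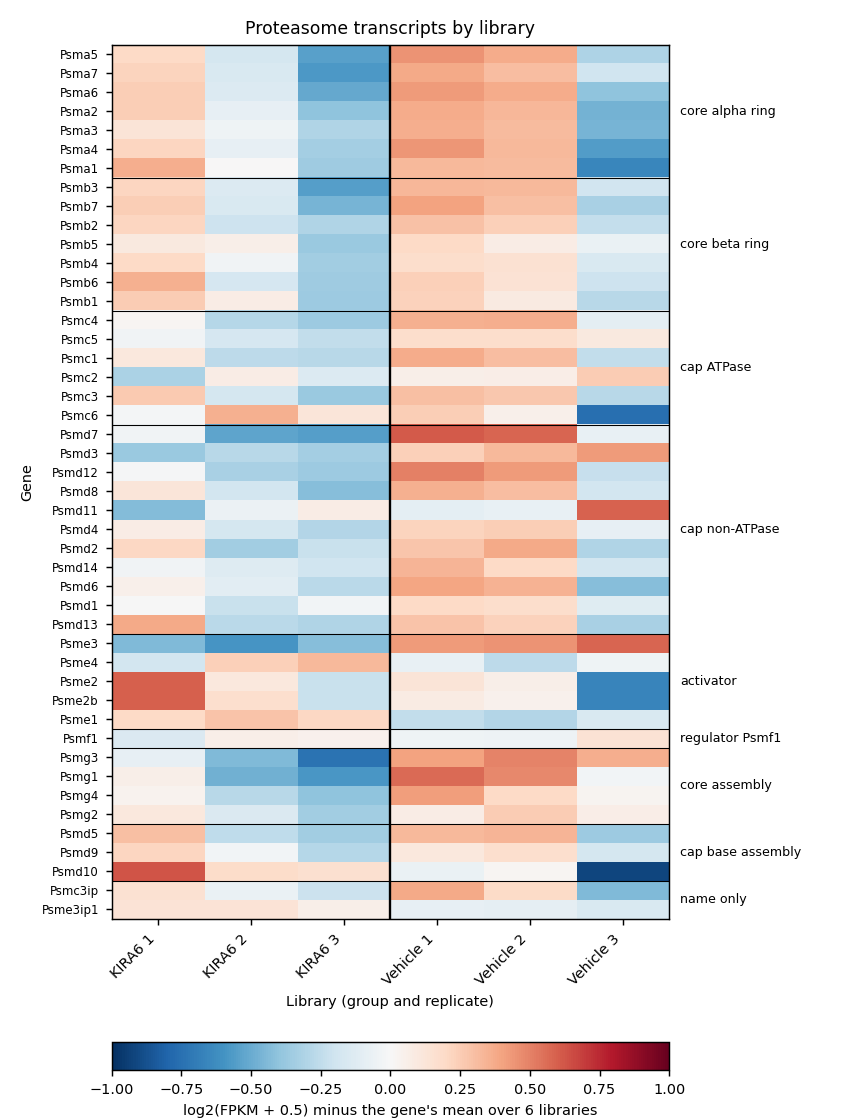
Deviation of log2(FPKM + 0.5) from each gene's mean over the 6 libraries (colour, from -1 in blue to 1 in red) for the 46 tested genes (rows, by role) in the KIRA6 and Vehicle libraries (columns). KIRA6 replicate 1 is the highest KIRA6 library in all 14 core genes, Vehicle replicate 3 is the lowest Vehicle library in all 14, and Psme3, Psmd3 and Psme1 depart from that pattern.

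Transcript length moved with this pattern to a small degree. The 7 genes highest among Vehicle libraries in Vehicle replicate 3 were Psmd3, Psmd11, Psme1, Psmc2, Psmf1, Psme4 and Psme3, with a median exonic length of 5031 bases, against 2607 bases for the 39 genes lowest there. Across the 46 genes, exonic length had a Spearman rho of 0.23 with the deviation of Vehicle replicate 3 and -0.37 with that of KIRA6 replicate 1, against 0.28 and -0.38 across all 11778 genes. These are descriptions across genes of the same libraries, and the part of length in the result was not tested. With the difference between KIRA6 and Vehicle, rho was 0.12 across the 46 genes.

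Promoter sequences are given for the genes of the symbol rule whose windows hold a motif of either transcription factor family named above. NRF1 and its relative NRF2 bind with small MAF proteins to the antioxidant response element, searched as TGACNNNGC on both strands. RefSeq windows of build GRCm38.p6, from 250 bases before to 50 bases after the start, matched 40 of the 48 genes by symbol. The motif occurred in 6 of the 40 (15.0%), against 14.0% of 27025 genes and 12.4% of 32851 windows of the same length. Among the pathway genes outside the symbol rule, described at the end, it occurred in 11 of 27 (40.7%). Called genes with a match were Adrm1, Maff and Mafk, which fell, and Nfe2l2, which rose. The match of Maff lay in 1 of its 3 windows. The called genes Nfe2l1, Rad23b, Psmb8 and Psmb9 had windows without a match. Each match in the 6 genes of the symbol rule is shown 5′ to 3′ along the gene's strand with the motif in capitals. A match on the other strand thus reads GC, any 3 bases, GTCA. The position is that of the first base of the match, with the start base as 0.
Psmb5, chr14:54618024-54618052, minus strand, position -47: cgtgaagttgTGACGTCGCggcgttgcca
Psmb6, chr11:70525338-70525366, plus strand, position -9: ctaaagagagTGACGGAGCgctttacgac
Psmc6, chr14:45329587-45329615, plus strand, position -227: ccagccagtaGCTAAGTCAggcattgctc
Psmd12, chr11:107479278-107479299, plus strand, position -247: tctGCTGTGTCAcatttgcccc
Psmd9, chr5:123228149-123228177, plus strand, position -31: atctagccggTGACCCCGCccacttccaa
Psme4, chr11:30771758-30771786, plus strand, position -7: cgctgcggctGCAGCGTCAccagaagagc
Of these 6 genes 0 were called by limma with all 6 libraries, 0 had an unadjusted p below 0.05, and limma-voom called 0. Without Vehicle replicate 3 and KIRA6 replicate 1, described above, Psmb6 and Psmd12 were called lower and Psme4 higher. For each of these called genes, that choice of libraries by itself moves the fold change in the same direction. With all 6 libraries, the log2 fold changes of the 6 genes ran from -0.47 for Psmd12 to 0.30 for Psmc6.

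The core of the interferon-stimulated response element, searched as GAAA, any 2 bases, GAAA on both strands, was chosen after the values of Psme1, Psmb8 and Psmb9 had been seen. It occurred in 5 of the 40 genes with a window (12.5%), against 3.99% of all genes with a window and 3.44% of windows. It occurred in 0 of 27 pathway genes, and the windows of Psmb8, Psmb9 and Psmb10 held no match. On the other strand it reads TTTC, any 2 bases, TTTC.
Psme1, chr14:55578493-55578522, plus strand, position 9: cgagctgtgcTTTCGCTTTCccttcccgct
Psmb3, chr11:97703261-97703290, plus strand, position -163: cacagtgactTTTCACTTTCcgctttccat
Psmd4, chr3:95042675-95042704, minus strand, position -80: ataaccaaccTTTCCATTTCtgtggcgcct
Psmd9, chr5:123228021-123228050, plus strand, position -159: gggacagaatGAAAAAGAAAggaatgaaca
Psmg4, chr13:34162969-34162998, plus strand, position 15: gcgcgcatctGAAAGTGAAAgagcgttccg
Of these 5 genes Psme1 rose, and the other 4 had log2 fold changes from -0.43 for Psmg4 to -0.067 for Psmd9 with no call. A match is a run of letters in the window and is not evidence of binding.

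No gene of the core particle was called by limma, 0 had an unadjusted p below 0.05 and limma-voom called 0, although 13 of the 14 tested had a log2 fold change below 0. Psmb5, the chymotrypsin-like catalytic subunit, measured 61.4, 60.0 and 44.4 FPKM in KIRA6 libraries and 66.2, 60.6 and 54.8 FPKM in Vehicle libraries, a log2 fold change of -0.14 (adjusted p = 0.603). Psmb6, the caspase-like subunit, measured 119, 82.5 and 72.6 FPKM with KIRA6 and 110, 103 and 80.3 FPKM with Vehicle (-0.12, adjusted p = 0.757). For Psmb7, the trypsin-like subunit, the levels were 71.3, 53.8 and 43.3 FPKM with KIRA6 and 79.4, 74.1 and 47.7 FPKM with Vehicle (-0.25, adjusted p = 0.539). The groups overlapped for all 3 catalytic genes, and in each the KIRA6 libraries spanned a wider range than the shift between group means. Without Vehicle replicate 3 and KIRA6 replicate 1, a choice that by itself lowers the fold changes of all 3, Psmb6 and Psmb7 were called lower and Psmb5 was not.

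The other core genes were not called either. Over the 7 alpha ring genes the log2 fold changes ran from -0.34 for Psma5 to 0.0064 for Psma1, and over the 7 beta ring genes from -0.31 for Psmb3 to -0.027 for Psmb1. The 95% intervals of all 14 lay between -0.996 (Psma5) and 0.766 (Psma1), and the interval of Psmb5 was narrower, at -0.55 to 0.27. Psma5 measured 199, 154 and 119 FPKM in KIRA6 libraries and 237, 224 and 140 FPKM in Vehicle libraries. Psma1, near 0 in its difference, measured 90.9, 70.7 and 54.9 FPKM with KIRA6 and 88.6, 88.1 and 44.6 FPKM with Vehicle. Both show the same order of libraries, with KIRA6 replicate 1 above the other KIRA6 libraries and Vehicle replicate 3 below the other Vehicle libraries. Of the transcript 50-mers of Psma5 and Psmb5, 49.1% and 54.1% also occur in transcripts of other genes, so their levels are uncertain.

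The tissue-restricted core genes were at or near 0. Psmb11, the beta subunit of thymic epithelium, had 0 fragments in all 6 libraries, which allows a level of up to 0.0293 to 0.0344 FPKM in KIRA6 libraries and 0.0337 to 0.0380 FPKM in Vehicle libraries (3 fragments). Psma8, the alpha subunit of testis, had 1 fragment in KIRA6 replicate 1 and 0 in the other 5 libraries, which allows up to 0.0606 to 0.0729 FPKM in those 5. These limits cover counting error only.

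In the cap, 1 of 17 genes was called lower (5.88%, against 7.98% of all genes) and 0 higher (against 15.6%). Psmd3, a lid subunit, fell to 28.7, 30.6 and 29.3 FPKM in KIRA6 libraries, against 43.9, 46.8 and 50.2 FPKM in Vehicle libraries. Every KIRA6 library was below every Vehicle library, and Vehicle replicate 3 was here the highest rather than the lowest Vehicle library. The log2 fold change was -0.66 ± 0.12 (SE, n = 3 per group, adjusted p = 0.0110). Psmd3 (ENSMUSG00000017221) lies at chr11:98573380-98586805 on the plus strand of GRCm39. Leaving out KIRA6 replicate 2 or Vehicle replicate 2 ended the call, at an adjusted p of 0.0515 and 0.0612.

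Psmd7, the partner of the cap deubiquitinase Psmd14, had the lowest log2 fold change of the cap genes but overlapping groups. It measured 127, 90.3 and 88.9 FPKM in KIRA6 libraries and 199, 196 and 124 FPKM in Vehicle libraries (log2 fold change -0.74 with an SE of 0.25, adjusted p = 0.0703). Vehicle replicate 3 lay just under the highest KIRA6 library. Psmd14 itself measured 53.8 ± 3.14 FPKM with KIRA6 and 64.3 ± 11.7 FPKM with Vehicle (SD, n = 3 each, adjusted p = 0.355). Psmd2 and Psmd1, large scaffold subunits of the cap base, had log2 fold changes of -0.24 and -0.17, and Psmd4, a ubiquitin receptor, -0.26, all without a call.

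Among the 6 ATPase genes, which form the unfolding ring, log2 fold changes ran from -0.42 for Psmc4 to 0.30 for Psmc6. Limma and limma-voom called 0 of them, and 0 had an unadjusted p below 0.05. Psmc5 measured 156, 142 and 134 FPKM in KIRA6 libraries and 181, 181 and 171 FPKM in Vehicle libraries. Its groups did not overlap, and the log2 fold change was -0.30 ± 0.13 (SE, adjusted p = 0.139). Psmc6 was the ATPase gene with a positive difference, with 23.2, 30.2 and 25.6 FPKM with KIRA6 and 27.9, 24.4 and 13.7 FPKM with Vehicle. Vehicle replicate 3 was far below the rest there, and without it and KIRA6 replicate 1 the log2 fold change of Psmc6 was 0.088.

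The activator genes split. Psme3, whose product PA28γ forms a nuclear ring that opens the core, fell to 56.7, 50.9 and 57.3 FPKM in KIRA6 libraries, against 103, 106 and 116 FPKM in Vehicle libraries. No KIRA6 library came near a Vehicle library, and the log2 fold change of -0.97 ± 0.13 (SE, n = 3 per group, adjusted p = 0.00338) was the lowest of all 46 genes. Psme3 (ENSMUSG00000078652) lies at chr11:101207039-101214363 on the plus strand of GRCm39. Its call held without each library in turn and ended only when libraries were scaled to the core genes, described below.

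Psme1, which encodes PA28α, rose to 51.6, 54.7 and 51.8 FPKM in KIRA6 libraries, against 37.6, 36.4 and 40.3 FPKM in Vehicle libraries. The 3 KIRA6 libraries were all above the 3 Vehicle libraries, with little spread within either group. The log2 fold change was 0.46 ± 0.12 (SE, n = 3 per group, adjusted p = 0.0329). Psme1 (ENSMUSG00000022216) lies at chr14:55815580-55818986 on the plus strand of GRCm39, overlapped on the other strand by Emc9, which was at 0.39 to 1.71 FPKM. Leaving out any library other than Vehicle replicate 3 ended the call, at an adjusted p of 0.0713 to 0.149. Median-ratio scaling ended it too, at a log2 fold change of 0.27 (adjusted p = 0.168), as did TPM scaling (adjusted p = 0.0607) and testing without a filter (adjusted p = 0.0536).

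Psme2, which encodes PA28β, the partner of PA28α, measured 65.2, 46.2 and 36.7 FPKM in KIRA6 libraries and 47.1, 44.7 and 27.0 FPKM in Vehicle libraries. Unlike those of Psme1, its groups overlapped, and its libraries kept the order seen in the core genes. The log2 fold change was 0.32 ± 0.29 (SE, adjusted p = 0.476). With KIRA6 replicate 1 and Vehicle replicate 3 left out it turned to -0.15. That choice leaves out the highest KIRA6 and the lowest Vehicle library of Psme2, which lowers its fold change by itself. Psme2b, a near copy of Psme2, measured 45.7, 33.8 and 25.8 FPKM with KIRA6 and 31.8, 31.0 and 18.8 FPKM with Vehicle. Of the 50-mers of Psme2b 68.7% occur in Psme2, so reads of these 2 genes may have been split between them and neither level is certain.

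Psme4, which encodes PA200, measured 6.38, 8.70 and 9.30 FPKM in KIRA6 libraries and 6.91, 6.02 and 7.10 FPKM in Vehicle libraries (log2 fold change 0.25, adjusted p = 0.349). KIRA6 replicate 1 fell inside the Vehicle range, and without it and Vehicle replicate 3 Psme4 was called higher (adjusted p = 0.0222). That choice leaves out the lowest KIRA6 and the highest Vehicle library of this gene, which raises its fold change by itself. Psmf1, which encodes PI31, a regulator that binds the core, measured 4.34, 5.08 and 5.02 FPKM with KIRA6 and 4.70, 4.67 and 5.42 FPKM with Vehicle (-0.031, adjusted p = 0.903). Its groups overlapped.

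**Figure D3:**
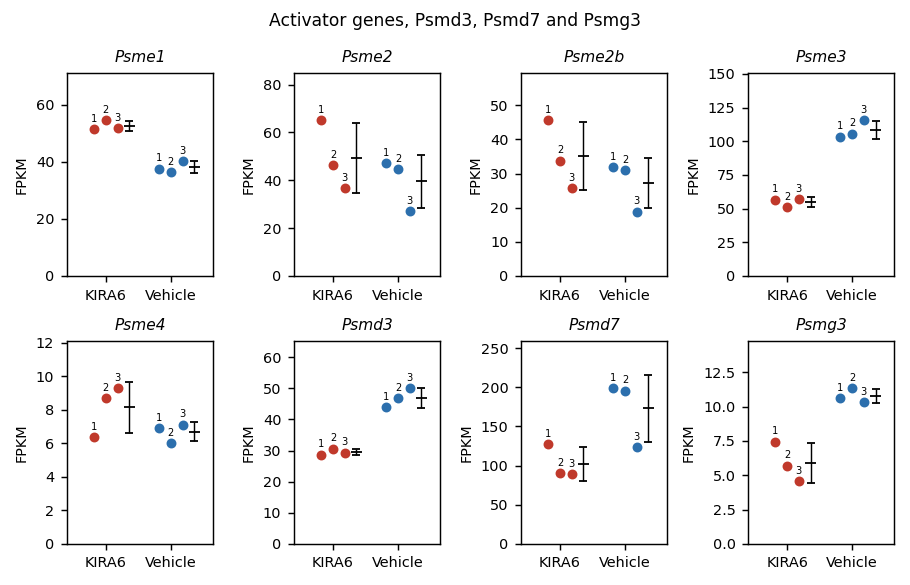
FPKM (y axes, from 0) of the 5 activator genes, the cap genes Psmd3 and Psmd7 and the assembly gene Psmg3 in KIRA6 (red) and Vehicle (blue) libraries, each point a library with its replicate number, bars the mean and SD of 3. Psme3 sits at 50.9 to 57.3 FPKM with KIRA6 and 103 to 116 FPKM with Vehicle, Psme1 at 51.6 to 54.7 FPKM with KIRA6 and 36.4 to 40.3 FPKM with Vehicle, and the groups of Psme2, Psme2b, Psme4 and Psmd7 overlap.

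The 4 genes for core assembly, which act as the chaperone pairs Psmg1 with Psmg2 and Psmg3 with Psmg4, all had log2 fold changes below 0, with a median of -0.55. Psmg3 fell to 7.45, 5.71 and 4.56 FPKM in KIRA6 libraries, against 10.7, 11.4 and 10.3 FPKM in Vehicle libraries, without overlap. The log2 fold change was -0.84 ± 0.19 (SE, n = 3 per group, adjusted p = 0.0216). Psmg3 (ENSMUSG00000029551) lies at chr5:139809347-139812640 on the minus strand of GRCm39. The call ended without KIRA6 replicate 2 or 3 or Vehicle replicate 1 or 2, at an adjusted p of 0.0584 to 0.0902.

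The other 3 of these chaperone genes were not called. Psmg1 measured 33.9, 23.2 and 21.6 FPKM in KIRA6 libraries and 48.4, 45.6 and 31.9 FPKM in Vehicle libraries (log2 fold change -0.67, adjusted p = 0.0842). Psmg4 measured 20.8, 16.6 and 15.2 FPKM with KIRA6 and 27.1, 23.3 and 20.7 FPKM with Vehicle (-0.43, adjusted p = 0.122). Both genes overlapped by a single pair of libraries, KIRA6 replicate 1 and Vehicle replicate 3. Psmg2 measured 19.8, 16.6 and 14.4 FPKM with KIRA6 and 19.4, 22.0 and 19.3 FPKM with Vehicle (-0.26, adjusted p = 0.277). Psmg1 was called lower under median-ratio scaling (adjusted p = 0.0468) and TPM scaling (adjusted p = 0.0396).

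The 3 chaperones of the cap base did not share a direction. Psmd10, also known as gankyrin, measured 22.4, 16.2 and 16.0 FPKM in KIRA6 libraries and 13.6, 14.4 and 7.29 FPKM in Vehicle libraries. These groups did not overlap, and the log2 fold change was 0.65 ± 0.28 (SE, adjusted p = 0.146). Psmd5 measured 24.5, 16.5 and 15.5 FPKM with KIRA6 and 24.9, 25.2 and 15.2 FPKM with Vehicle (-0.20, adjusted p = 0.635). Psmd9 measured 7.77, 6.48 and 5.36 FPKM with KIRA6 and 7.18, 7.51 and 5.82 FPKM with Vehicle (-0.067, adjusted p = 0.829). Within each of the 3, KIRA6 replicate 1 was the highest KIRA6 library and Vehicle replicate 3 the lowest Vehicle library. Of the genes that are members by name only, Psme3ip1, whose product binds PA28γ, measured 17.9 ± 0.575 FPKM with KIRA6 and 15.3 ± 0.438 FPKM with Vehicle (SD, n = 3 each, adjusted p = 0.216), and Psmc3ip, a meiotic recombination gene, 10.7 ± 1.45 FPKM with KIRA6 and 11.6 ± 3.34 FPKM with Vehicle.

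**Figure D4:**
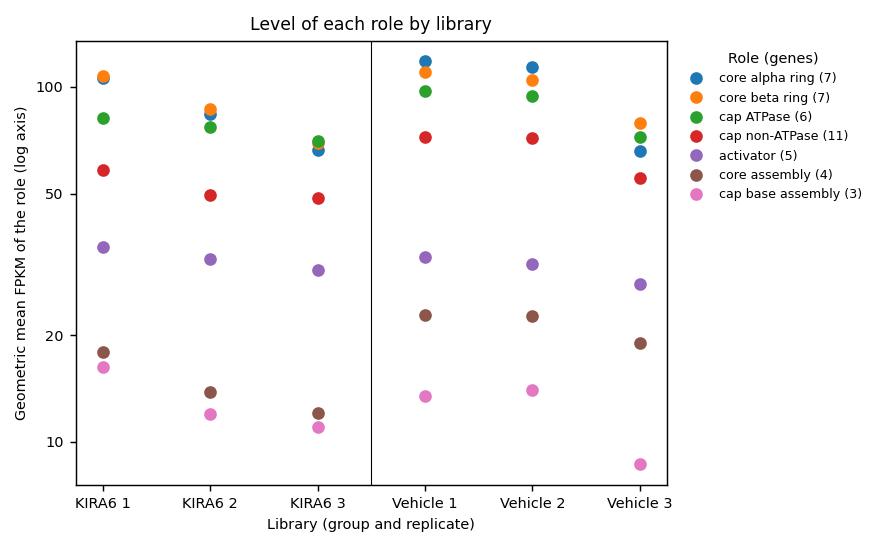
Geometric mean FPKM (y axis, logarithmic) of the tested genes of each role in each of the 6 libraries (x axis, KIRA6 then Vehicle). The core rings lie at 66.1 to 118 FPKM, the core assembly genes at 12.1 to 17.9 FPKM in KIRA6 libraries and 19.0 to 22.8 FPKM in Vehicle libraries, and the core assembly group is the one whose libraries do not overlap between the groups.

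Summed up by role, most levels overlapped between the groups. The geometric mean of the cap genes was 65.7, 58.0 and 55.4 FPKM in KIRA6 libraries and 80.3, 78.8 and 60.8 FPKM in Vehicle libraries. For the 4 core assembly genes it was 17.9, 13.8 and 12.1 FPKM with KIRA6 and 22.8, 22.7 and 19.0 FPKM with Vehicle. Only this last set, among the 7 roles plotted, had no overlap between the groups. The activator means, at 35.4, 32.8 and 30.4 FPKM with KIRA6 and 33.2, 31.7 and 27.9 FPKM with Vehicle, combine the opposite differences of Psme1 and Psme3.

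A second view asked what differed relative to the core genes of the same library. For this each library was divided by the geometric mean of its 14 core genes, a scaling chosen after the core genes had been seen to differ together between libraries. It called 3 genes higher and 1 lower, against 9.79% and 3.06% of all genes, and moved the median of all genes to 0.31. Core genes themselves set this scale, so their values under it are no result. None of the 4 genes called on FPKM was called here, at adjusted p of 0.0873 to 0.306.

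Psmd7 was lower relative to the core, at 1.20, 1.06 and 1.31 times the core mean in KIRA6 libraries and 1.75, 1.80 and 1.71 times in Vehicle libraries (log2 fold change -0.56, adjusted p = 0.0304). The groups lay well apart, whereas in FPKM they overlapped. Psmd10 was higher relative to the core, at 0.211, 0.190 and 0.235 times with KIRA6 and 0.119, 0.133 and 0.101 times with Vehicle (0.83, adjusted p = 0.0347). Psme2, at 0.613, 0.542 and 0.540 times with KIRA6 and 0.412, 0.411 and 0.373 times with Vehicle, was also higher (0.50, adjusted p = 0.0497). Psme2b, which shares sequence with Psme2, was the remaining call (0.54, adjusted p = 0.0444). Psme1 relative to the core was at 0.485, 0.641 and 0.761 times with KIRA6 and 0.329, 0.334 and 0.557 times with Vehicle, so its groups overlapped on this scale. Psme3 was at 0.533, 0.597 and 0.843 times with KIRA6 and 0.906, 0.970 and 1.60 times with Vehicle, still without overlap (-0.79, adjusted p = 0.114).

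Subunits that sit in the complex in equal number were unequal in transcript level. Per length, Psma6 was the highest and Psma3 the lowest core gene in all 6 libraries. Psma6 measured 328, 252 and 194 FPKM in KIRA6 libraries and 373, 359 and 209 FPKM in Vehicle libraries, and Psma3 36.3, 32.2 and 26.9 FPKM with KIRA6 and 43.0, 41.5 and 23.9 FPKM with Vehicle. The ratio of highest to lowest was 7.22 to 9.04 in KIRA6 libraries and 8.66 to 8.75 in Vehicle libraries. Among the 17 cap genes of the symbol rule, Psmc1 was the highest in all 6 libraries. The lowest was Psmd11 in all but Vehicle replicate 3, where it was Psmc6, and the ratio was 7.74 to 14.4 with KIRA6 and 12.5 to 13.6 with Vehicle. The exonic length by which FPKM divides ran from 899 to 4595 bases in the core, so isoforms and shared sequence enter these ratios: 15.4% of the 50-mers of Psma3 also occur in other genes.

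Other genes of the pathway were read from lists of 36 genes outside the symbol rule, of which 35 were in the table and tested. Across them 4 were called higher (11.4%) and 4 lower (11.4%), to be read against 15.6% and 7.98% of all genes tested. The immunoproteasome subunits, which replace the catalytic subunits of the core in newly built particles, included 2 increases among 3 genes. Psmb9, which replaces Psmb6, rose to 5.43, 4.03 and 3.99 FPKM in KIRA6 libraries, against 1.25, 1.08 and 0.76 FPKM in Vehicle libraries (log2 fold change 1.70 ± 0.20, SE, n = 3 per group, adjusted p = 0.0023). Psmb8, which replaces Psmb5, rose to 37.9, 30.1 and 25.9 FPKM with KIRA6, against 17.0, 16.0 and 13.3 FPKM with Vehicle (0.98 ± 0.18, adjusted p = 0.0115), a call that ended without KIRA6 replicate 2 (adjusted p = 0.0529). Neither gene's groups overlapped, although within KIRA6 both were highest in replicate 1, as the core genes were. Psmb10, which replaces Psmb7, measured 27.9, 26.2 and 20.5 FPKM with KIRA6 and 19.9, 19.9 and 19.5 FPKM with Vehicle, without overlap but also without a call (0.31, adjusted p = 0.187).

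Of the other subunits and assembly factors, 1 of 4 was called lower (25%, against 7.98% of all genes) and 0 higher. Adrm1, a ubiquitin receptor of the cap, fell to 17.0, 17.5 and 14.7 FPKM in KIRA6 libraries, against 24.2, 23.4 and 22.7 FPKM in Vehicle libraries (log2 fold change -0.50, adjusted p = 0.0310). Pomp, the chaperone on which the beta ring is built, measured 31.9, 25.3 and 19.6 FPKM with KIRA6 and 38.5, 34.2 and 20.8 FPKM with Vehicle (-0.26, adjusted p = 0.552), with the library order of the core genes. The Adrm1 call ended when any library other than Vehicle replicate 3 was left out, at an adjusted p of 0.0629 to 0.122.

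Among the 7 genes of the transcription factors of proteasome genes and their processing, 2 were called higher and 2 lower (28.6% each, against 15.6% and 7.98% of all genes). Nfe2l1, which encodes NRF1, rose to 63.3, 56.3 and 71.1 FPKM in KIRA6 libraries, against 33.2, 40.5 and 41.2 FPKM in Vehicle libraries (log2 fold change 0.72 ± 0.15, SE, adjusted p = 0.0180). Nfe2l2, which encodes NRF2, rose to 23.6, 26.0 and 33.1 FPKM with KIRA6, against 15.4, 15.2 and 20.9 FPKM with Vehicle (0.67, adjusted p = 0.0466). No library of either group crossed into the other for these 2 genes. Their small MAF partners Maff and Mafk fell, Maff to 3.59, 2.67 and 2.99 FPKM with KIRA6, against 9.93, 11.6 and 9.19 FPKM with Vehicle (-1.58, adjusted p = 0.00167). Mafk fell to 5.63, 4.26 and 4.27 FPKM with KIRA6, against 10.4, 10.5 and 9.63 FPKM with Vehicle (-1.04, adjusted p = 0.00505). Ddi2, the protease that cuts NRF1, Ngly1, which removes its sugars, and Mafg were not called, with log2 fold changes of -0.32, 0.29 and -0.26. The Nfe2l1 call ended without KIRA6 replicate 3 or Vehicle replicate 1 or 2, at an adjusted p of 0.0626 to 0.0696. That of Nfe2l2 ended in 11 of the 18 alternatives, with median-ratio scaling (adjusted p = 0.113) among them, and Maff and Mafk were called in all 18.

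Of the lists further along the pathway, 0 of 7 proteasome-bound enzymes and adaptors and 0 of 6 ubiquitin genes and activating enzymes were called by limma or limma-voom. At an unadjusted p below 0.05 there were 2 higher and 2 lower among those 7 and 0 among those 6, against 24.6% higher and 12.8% lower of all genes. Of the 8 shuttle factor and VCP genes, 1 was called lower (12.5%, against 7.98% of all genes) and 0 higher. Rad23b, which carries ubiquitinated proteins to the cap, fell to 47.8, 43.5 and 46.5 FPKM in KIRA6 libraries, against 72.0, 71.9 and 66.4 FPKM in Vehicle libraries (-0.60, adjusted p = 0.0143). The Rad23b call ended without KIRA6 replicate 2 or Vehicle replicate 1 or 2, at an adjusted p of 0.0639 to 0.0787. Vcp, which extracts ubiquitinated proteins from complexes and membranes, measured 131 ± 18.3 FPKM with KIRA6 and 133 ± 12.4 FPKM with Vehicle (SD, n = 3 each, adjusted p = 0.906).

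**Figure D5:**
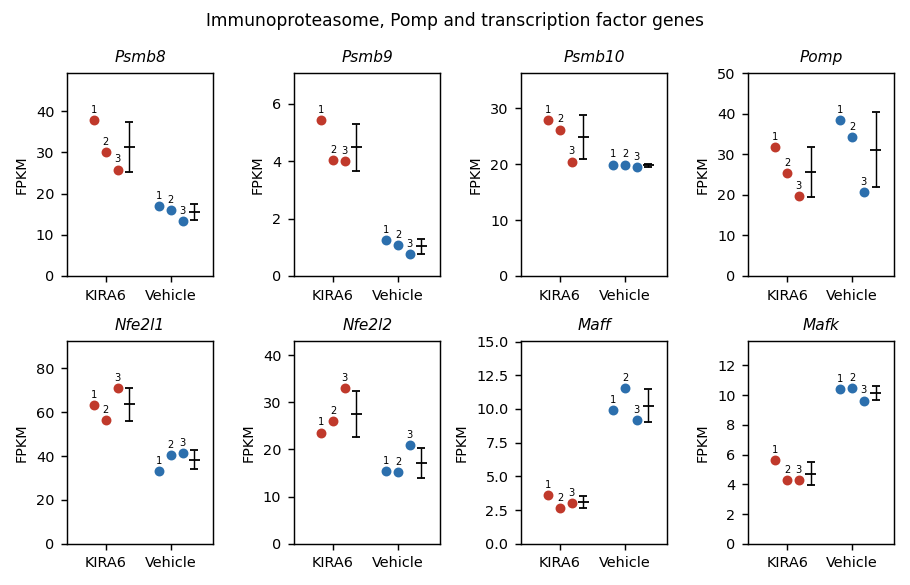
FPKM (y axes, from 0) of the immunoproteasome genes Psmb8, Psmb9 and Psmb10, the chaperone gene Pomp and the transcription factor genes Nfe2l1, Nfe2l2, Maff and Mafk in KIRA6 (red) and Vehicle (blue) libraries, each point a library with its replicate number, bars the mean and SD of 3. Psmb9 sits at 3.99 to 5.43 FPKM with KIRA6 and 0.76 to 1.25 FPKM with Vehicle, Maff at 2.67 to 3.59 FPKM with KIRA6 and 9.19 to 11.6 FPKM with Vehicle, and only the groups of Pomp overlap.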

How the data were processed

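RNA of 6 libraries of 4T1 cells was analysed, 3 with KIRA6 and 3 with Vehicle, grouped by the treatment in the labels. Libraries were made from poly(A) RNA with strand kept, per the labels' protocols. Per the submitters' processing notes, reads were processed with DESeq2 1.34.0, HTSeq 0.6.1, HISAT2 2.2.1 and cutadapt 1.9.1 on build GRCm39. Whether counting used strand is not stated there, so reads of overlapping genes may not be told apart. The authors deposited FPKM with 2 decimals, beside exonic length and coordinates. FPKM times length stepped by whole fragments (all of 942 to 1186 values checked per library, within 0.1 fragment), which gave the depth.

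The test was limma 3.58.1 (R 4.3.3) on log2(FPKM + 0.5), with an intensity trend and robust empirical Bayes and without a replicate block, for genes averaging 0.5 FPKM or more. Fold changes are on that scale and understate those of low genes. The fit and the depth recovery were tested on simulated data. No label states that replicates were separate cultures, so a p-value reflects the spread between these libraries alone and that spread may be technical. An exact permutation of 3 against 3 cannot go below 0.1.

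The genes, roles and pathway lists were chosen with earlier results of these data known. Per-library values were given by rule for called genes, catalytic subunits, activators, Psmf1, assembly genes and fixed pathway genes. Psmc5, Psmc6, Psmd7, Psma1, Psma3, Psma5, Psma6 and Psme2b were added after their values were seen. Paaf1, of the pathway lists, was not analysed here. Of the leukocyte markers, 1 is not reported here. Promoters are RefSeq windows of GRCm38.p6, without a match for Psma8, Psmb1, Psmb2, Psmb7, Psmc3, Psmd3, Psmd7 and Psmg2. Sequence sharing was measured as 50-mers common with other genes' transcripts in GENCODE M21. The scaling to core genes and the second motif were chosen after seeing the data. In all 18 alternatives were run.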

Additional observations from a re-analysis of the deposited data

How the results depend on the processing

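The count of genes called higher was 1 with all libraries, against 15.6% of all genes. It was 0 without a filter (against 7.18% of all genes), with median-ratio scaling (11.0%) and with TPM scaling (13.4%). It was 2 with both KIRA6 replicate 1 and Vehicle replicate 3 left out (35.7%), and 3 when scaled to the core genes (9.79%). The count called lower was 3 with all libraries, against 7.98% of all genes. It was 6 with median-ratio scaling (against 12.2% of all genes) and 5 with TPM scaling (9.06%). It was 32 without those 2 libraries together (20.1%), and 1 when scaled to the core genes (3.06%). Leaving out 1 library at a time gave 0 to 1 higher and 1 to 8 lower. The shares of all genes there were 6.73% to 17.7% higher and 3.3% to 11.2% lower. The medians without those 2 libraries together were -0.51 for all 46 genes, -0.56 for core, -0.55 for cap, -0.089 for activator and -0.63 for assembly genes. As described above, that choice of libraries lowers most core, cap and assembly values by itself. Replicate numbers matched across the groups in part: deviations of same-numbered libraries correlated at 0.76, -0.47 and 0.74 for replicates 1, 2 and 3. Replicates 1 and 3 matched their own number best in both directions, and replicate 2 in neither. Whether same-numbered libraries share a source was not tested, and the main fit counts any difference they share as spread. A fit with the replicate number as a block called 2 genes higher and 8 lower, against 24.5% and 13.1% of all genes. Scaling to the core genes reversed the sign of 12 of the 46 genes, 0 of them called, Psmf1 (0.13) and Psmd9 (0.10) among them. This scaling raised the median of all genes from 0.16 to 0.31, so values just below 0 turned positive by the scaling itself. Psmb5 (0.039) and Psmb6 (0.065) were also among the 12, but as core genes they set this scale, so their values are no result. Quantile normalization reversed Psmb1 and Psmb6 (0.0050). Leaving out the 2 libraries together reversed 5, of which Psma1 was then called lower and Psmd11, Psme2 (-0.15), Psme2b and Psmf1 (0.098) were not called. In Psma1, Psme2 and Psme2b these were the highest KIRA6 and the lowest Vehicle library, so leaving them out lowers the fold change by itself. In Psmd11 and Psmf1 they were the lowest KIRA6 and the highest Vehicle library, so leaving them out raises it by itself. Leaving out 1 library at a time gave -0.22 to 0.0082 for Psmb5, -0.32 to 0.034 for Psmb6, -0.068 to 0.034 for Psmf1 and -0.19 to 0.058 for Psmd9. Why the settings other than core scaling and leaving out those 2 libraries together reversed signs was not tested. Of the 18 alternatives, the Psme3 call held in 17, that of Psmd3 in 15, that of Psmg3 in 13 and that of Psme1 in 9, each keeping its sign in all 18.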

Other observations

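Pseudogene rows named after a subunit were outside the symbol rule. Psma5-ps measured 20.2, 16.0 and 14.0 FPKM in KIRA6 libraries and 24.2, 24.1 and 17.0 FPKM in Vehicle libraries, in the order of libraries shown by Psma5. Psmb7-ps2 was at 0.20 FPKM in KIRA6 replicate 2 and at 0 in the other 5 libraries. Psmb5-ps, Psmb6-ps and Psmb6-ps2 were listed at 0 in all 6.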
